A study of Mus musculus with 6 samples.

Results

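LAT1 (SLC7A5) and its partner CD98 heavy chain (SLC3A2) were described together with 8 further plasma membrane amino acid transporter genes, SLC7A11, SLC7A1, SLC7A8, SLC1A5, SLC1A4, SLC38A1, SLC38A2 and SLC43A1, in parental 22Rv1 prostate cancer cells and in a subline resistant to BL-B01D1. The 10 genes were picked by gene name out of 58735 genes in the table, and all 10 were among the 17142 genes with enough counts to be tested. The choice was made with this same comparison known, including the low SLC7A5 and SLC3A2 counts of the resistant libraries. The differences of the 10 genes are therefore given as a description, without p-values, whereas genes outside the set carry a test. The lists of further genes were also chosen with earlier results of these data known. Some of their genes were named after their values were seen, so those tests are not independent evidence.

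The samples were 6 bulk poly-A RNA-Seq libraries of 22Rv1, an established human prostate cancer line. The labels name mouse as the organism, but the line and the gene identifiers are human, and the values were read as human. The control group was 3 libraries of parental cells that received vehicle. The other group was 3 libraries of 22Rv1 BL-B01D1_R, selected from the parental line by months of exposure to rising amounts of BL-B01D1, an antibody-drug conjugate that binds EGFR and HER3 and carries the camptothecin-type topoisomerase I inhibitor Ed-04. No engineered allele is named for either group. The resistant libraries came from a single selected subline, so their spread does not cover a repeated selection, and neither clonality nor the presence of drug at harvest is given in the sources used here.

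Amino acids cross the plasma membrane through carriers of several families. LAT1 is a light chain that exchanges leucine and other large neutral amino acids. It reaches the cell surface together with the CD98 heavy chain, to which a disulfide bond joins it. The CD98 heavy chain is a single-pass glycoprotein that also serves other SLC7 light chains. Sodium-coupled carriers of the SLC1 and SLC38 families bring in small neutral amino acids and glutamine, and LAT1 can exchange glutamine for leucine. The leucine that enters is sensed by mTORC1 at the lysosome. In prostate cancer cells, LAT1 and LAT3 (SLC43A1) are known leucine carriers.

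Total counts ranged from 13821639 to 17251491 per library, so 3 counts corresponded to between 0.174 and 0.216 counts in 1000000 (CPM). Of 10 prostate luminal markers, all passed the filter on low counts, and their summed level was 3448 to 3550 CPM in parental and 3640 to 3728 CPM in resistant libraries. Single markers moved in both directions, with log2 fold changes from −0.48 (HOXB13) to 0.91 (KLK3). At a false discovery rate (FDR) under 0.05 in edgeR, 6 were higher and 3 lower, beside 17.1% and 18.4% of all genes tested. Of 13 markers of basal, stromal, endothelial, immune and neuroendocrine cells, 8 had at most 5 counts in any library, with KRT5 and CD3E at 0 throughout, and the whole list summed to between 246.8 and 263.7 CPM in parental and between 148.8 and 161.3 CPM in resistant libraries. Of the 5 tested, 2 were called lower, where 2.84% of all genes tested were. These were LUM (96.0 to 28.8 CPM) and CHGA (39.4 to 8.18 CPM), which made up most of that difference. SYP, the marker with the highest level and, like CHGA, neuroendocrine, was at 103 ± 7.63 and 106 ± 3.65 CPM (FDR 0.531 in edgeR's quasi-likelihood test). Mitochondrial genome transcripts took 4.19 to 4.21% of counts in parental and 5.11 to 5.35% in resistant libraries. The part of these shifts in the results below was not tested. Because the RNA was extracted in bulk, fewer cells expressing a gene and less RNA per cell cannot be told apart.

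Both chains of the LAT1-CD98 complex were far lower in the resistant subline, and they stood apart from the other 8 genes in size. By mean CPM, SLC7A5 was 9.58-fold lower and SLC3A2 5.66-fold lower. The log2 fold changes of 7 genes lay between −0.99 and −0.30, and SLC7A8 overlapped between the groups. Of the 10 genes, 2 were called lower (false discovery rate, FDR, under 0.05 and an absolute log2 fold change over 1, edgeR's quasi-likelihood test), where 2.84% of all genes tested were called lower, and 0 were called higher, where 2.53% of all genes were. At the FDR alone, 9 were lower and 0 higher, against 18.4% and 17.1% of all genes. At an unadjusted p under 0.05 these counts were also 9 and 0, but no share of all genes was worked out at that cutoff. limma-voom and DESeq2 also called 2 genes lower and 0 higher. The median log2 fold change of the 10 genes was −0.71 and that of all genes tested was 0.0038. Since the comparison itself chose the genes, these counts describe the set only. Of the genes called, SLC3A2 at −2.501 was the closer to the fold threshold, and of the others SLC43A1 at −0.99 and SLC1A5 at −0.95 fell just short of it.

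SLC7A5 (ENSG00000103257, hg38 chromosome 16, 87830023 to 87869488, minus strand) encodes the LAT1 light chain. Its level was 4834, 4795 and 4884 CPM in the parental libraries and 503.8, 499.9 and 511.0 CPM in the resistant libraries. The libraries of each line lay within a few percent of each other, and every resistant library was far below every parental one. In raw reads, the parental libraries held 83325, 80523 and 67802 SLC7A5 counts and the resistant libraries 8351, 7354 and 8292. The mean level went from 4838 ± 44.9 to 505 ± 5.61 CPM (SD, n = 3 each), a log2 fold change of −3.26 (SE 0.023), which left 10.4% of the parental level. SLC7A5 was the gene with the fourth highest count in each parental library, where it took between 0.483 and 0.491% of all counts, and it ranked from 202 to 208 in the resistant libraries. With length taken into account, as CPM divided by the gene's length in kilobases (FPKM), it was 18th in each parental library and 296th to 308th in the resistant libraries.

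SLC3A2 (ENSG00000168003, chromosome 11, 62856102 to 62888875, plus strand) encodes the CD98 heavy chain that carries LAT1 to the membrane. Its level was 1225, 1237 and 1184 CPM in parental libraries and 211, 220.1 and 213 CPM in resistant libraries. The gap between the lines was again many times the spread within either line. The mean went from 1216 ± 27.9 to 215 ± 4.71 CPM (SD, n = 3 each), a log2 fold change of −2.501 (SE 0.028) that left 17.7% of the parental level. By FPKM it moved from rank 99 to 104 in parental libraries to rank 1027 to 1091 in resistant libraries.

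**Figure D1:**
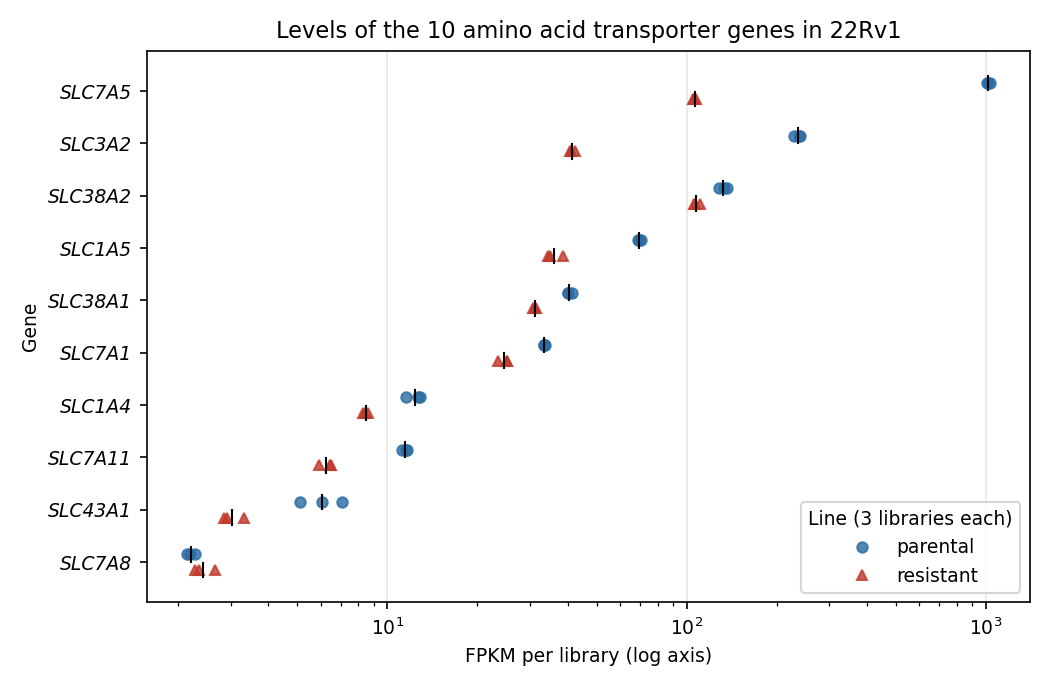
Level of each of the 10 transporter genes, in FPKM on a log axis, with 1 point for each of the 3 libraries of parental and of resistant 22Rv1 and a vertical line at the mean. The SLC7A5 points drop from between 1010.5 and 1029 to between 105 and 108 FPKM and the SLC3A2 points from between 229 and 239 to between 40.8 and 42.5 FPKM, whereas the SLC7A8 points of both lines overlap.

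The light and the heavy chain transcripts did not drop in proportion. Per library, the ratio of SLC7A5 to SLC3A2 on the FPKM scale was 4.30, 4.23 and 4.50 in parental cells and 2.60, 2.48 and 2.62 in resistant cells. The ranges did not overlap, and the mean ratio was 4.35 ± 0.14 against 2.57 ± 0.077 (SD, n = 3 each). As both genes were chosen on this comparison, the ratio is given without a test, and its absolute size depends on the gene lengths that the authors listed (4745 bases for SLC7A5 and 5178 bases for SLC3A2).

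CD98 also serves light chains other than LAT1, and the listed ones were SLC7A6, SLC7A7, SLC7A8, SLC7A10 and SLC7A11. Summed with SLC7A5, the 6 light chains added up to 1035 ± 9.15 FPKM in parental and 117 ± 1.59 FPKM in resistant libraries, and the sum relative to SLC3A2 went from 4.41 ± 0.14 to 2.82 ± 0.097. SLC7A5 supplied 98.5% of the light chain FPKM in parental cells and 90.9% in resistant cells. The light chains other than SLC7A5 added up to 15.8 ± 0.313 FPKM in parental and 10.7 ± 0.756 FPKM in resistant libraries, so they remained a small part of the total in both lines. These sums, and those further on, were formed after the values had been seen.

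SLC7A11 (ENSG00000151012, chromosome 4, 138164097 to 138242349, minus strand) encodes xCT, the light chain that imports cystine in exchange for glutamate. It was at 112, 112 and 108 CPM in parental and 62.3, 56.9 and 61.9 CPM in resistant libraries. The lowest parental library was above the highest resistant library, with a log2 fold change of −0.87 (SE 0.046) and 54.5% of the parental level left. Relative to SLC7A5, its FPKM was 1.13% in parental and 5.88% in resistant cells.

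SLC7A8 (ENSG00000092068, chromosome 14, 23125295 to 23183674, minus strand) encodes LAT2, a CD98-linked carrier of neutral amino acids with a wider range of substrates than LAT1. It was the gene of the set whose groups overlapped, at 13.7, 13.2 and 12.8 CPM in parental and 15.9, 13.7 and 14.1 CPM in resistant libraries. The lower end of the resistant libraries coincided with the upper end of the parental ones. The log2 fold change was 0.14 (SE 0.101), the only one of the 10 above 0. At 178 to 263 counts per library it was also, with SLC43A1, among the less precisely measured members.

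SLC43A1 (ENSG00000149150, chromosome 11, 57484534 to 57515786, minus strand) encodes LAT3, a facilitative carrier of leucine and other branched-chain amino acids that works without CD98. It read 18.0, 21.3 and 24.9 CPM in parental and 11.8, 10.3 and 10.045 CPM in resistant libraries. The lines did not overlap, but the parental libraries differed among themselves by more than for any other member, with a coefficient of variation of 16.1%. The log2 fold change was −0.99 (SE 0.107), with 49.9% of the parental level left, and it ran from −1.11 to −0.88 as each library was left out, past the fold threshold without parental replicate 1 (−1.11) or resistant replicate 1 (−1.07). Together SLC7A5, SLC7A8 and SLC43A1 summed to 1028 FPKM in parental and 112 FPKM in resistant cells.

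SLC7A1 (ENSG00000139514, chromosome 13, 29509410 to 29595688, minus strand) encodes CAT1, the main carrier of arginine and lysine in most cells, and needs no heavy chain. Its level was 257, 256 and 258 CPM in parental and 193, 181 and 193 CPM in resistant libraries. The lines were well apart, with a log2 fold change of −0.45 (SE 0.033) and 73.4% of the parental level left.

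Of the 10 genes, 4 encode sodium-dependent carriers of small neutral amino acids and glutamine. SLC1A5 (ENSG00000105281, chromosome 19, 46774883 to 46788594, minus strand) encodes ASCT2, a sodium-dependent exchanger that takes up glutamine. Its level was 234, 231 and 229 CPM in parental libraries and 115, 116 and 129 CPM in resistant libraries. Resistant replicate 3 lay above the other resistant libraries, though still far below the parental range. The log2 fold change was −0.95 (SE 0.038), with 51.8% of the parental level left, and it became −1.004 without resistant replicate 3, which put SLC1A5 past the fold threshold.

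SLC1A4 (ENSG00000115902, chromosome 2, 64988477 to 65023865, plus strand) encodes ASCT1, an exchanger of alanine, serine and cysteine. It was at 87.8, 89.0 and 80.1 CPM in parental and 57.7, 58.3 and 60.02 CPM in resistant libraries. The parental libraries were the more spread of the groups, and the log2 fold change was −0.55 (SE 0.049), with 68.6% of the parental level left.

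SLC38A1 (ENSG00000111371, chromosome 12, 46183063 to 46270017, minus strand) and SLC38A2 (ENSG00000134294, chromosome 12, 46358189 to 46372867, minus strand) encode SNAT1 and SNAT2, which import glutamine and small neutral amino acids together with sodium. SLC38A1 was at 415, 401 and 403 CPM in parental and 312, 316 and 308 CPM in resistant libraries. SLC38A2 was at 901, 881 and 844 CPM in parental and 730.5, 699.6 and 702 CPM in resistant libraries. Both were lower in every resistant library than in any parental library, by less than the other members that were lower. The log2 fold change was −0.38 (SE 0.028) for SLC38A1 and −0.30 (SE 0.026) for SLC38A2, which left 76.7% and 81.2% of the parental level. The FPKM of SLC1A5, SLC1A4, SLC38A1 and SLC38A2 summed to 255 ± 6.30 in parental and 183 ± 2.16 in resistant libraries, 71.9% of the parental sum.

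The order of the members by length-corrected level changed at the top only. In parental cells the mean FPKM ran from SLC7A5 (1020 ± 9.45) through SLC3A2 (235 ± 5.38), SLC38A2 (133 ± 4.34), SLC1A5 (69.5), SLC38A1 (40.6), SLC7A1 (33.4), SLC1A4 (12.3), SLC7A11 (11.5) and SLC43A1 (6.07) to SLC7A8 (2.21). SLC1A4 and SLC7A11 were the only neighbours in that order whose libraries overlapped, with 11.5 to 12.8 against 11.2 to 11.7 FPKM. In resistant cells SLC38A2 (108 ± 2.58 FPKM) and SLC7A5 (106 ± 1.18 FPKM) were level, with overlapping libraries. They were followed by SLC3A2 (41.5 ± 0.909), SLC1A5 (36.0) and SLC38A1 (31.1), and no other neighbours overlapped.

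Summed over the 10 genes, the transcript level was 1562 ± 5.46 FPKM in parental and 367 ± 3.64 FPKM in resistant libraries, 23.5% of the parental sum. SLC7A5 alone made up 65.3% of the parental sum and 29.0% of the resistant sum, and SLC3A2 made up 15.02% and 11.3%. The 8 genes other than SLC7A5 and SLC3A2 summed to 308 ± 5.55 and 219 ± 3.62 FPKM, so most of the lost signal was that of the LAT1-CD98 pair.

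**Figure D2:**
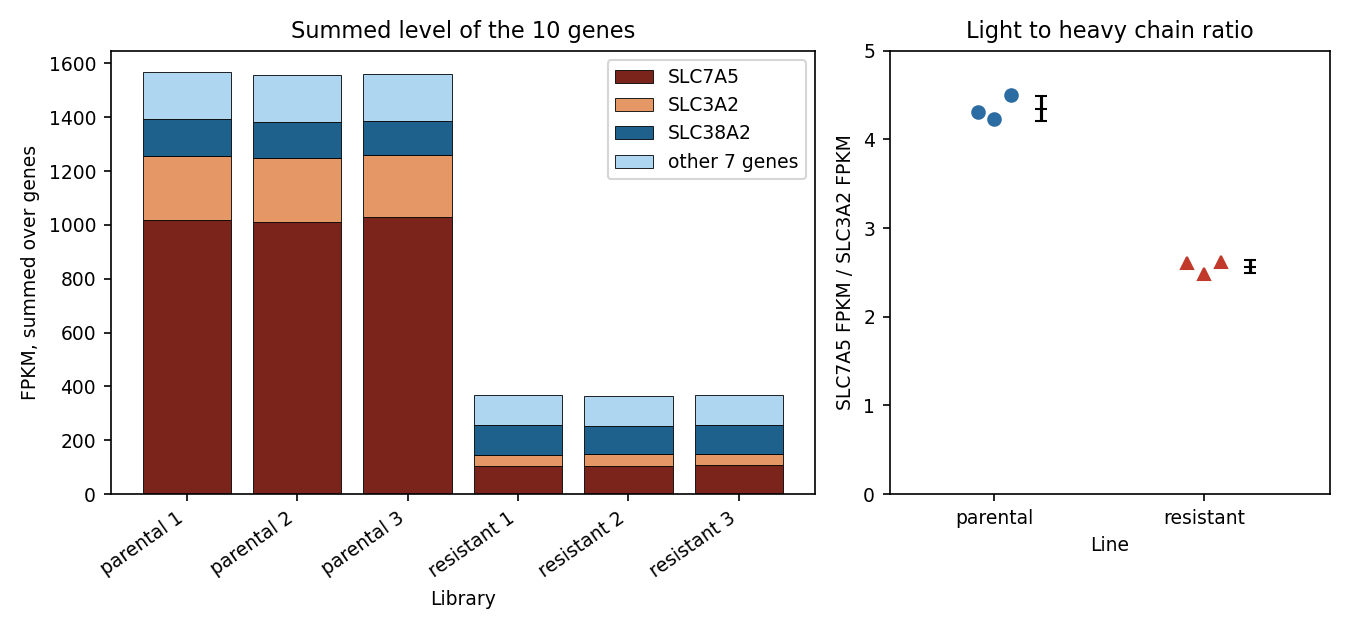
On one side, stacked bars give the summed FPKM of the 10 genes in each library, divided into SLC7A5, SLC3A2, SLC38A2 and the other 7 genes, and on the other side points give the ratio of SLC7A5 to SLC3A2 FPKM in each library with the mean and SD of 3 libraries. The sums lie between 1558 and 1569 FPKM in parental and between 363 and 370 FPKM in resistant libraries, and the ratios lie between 4.23 and 4.50 and between 2.48 and 2.62.

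SLC7A5 and SLC3A2 combined a high level with a large drop. The plot of fold change against level shows SLC7A5 and SLC3A2 at the right and low end, away from the cloud of genes tested, and the other 8 members between the lines at a log2 fold change of 1 in either direction.

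**Figure D3:**
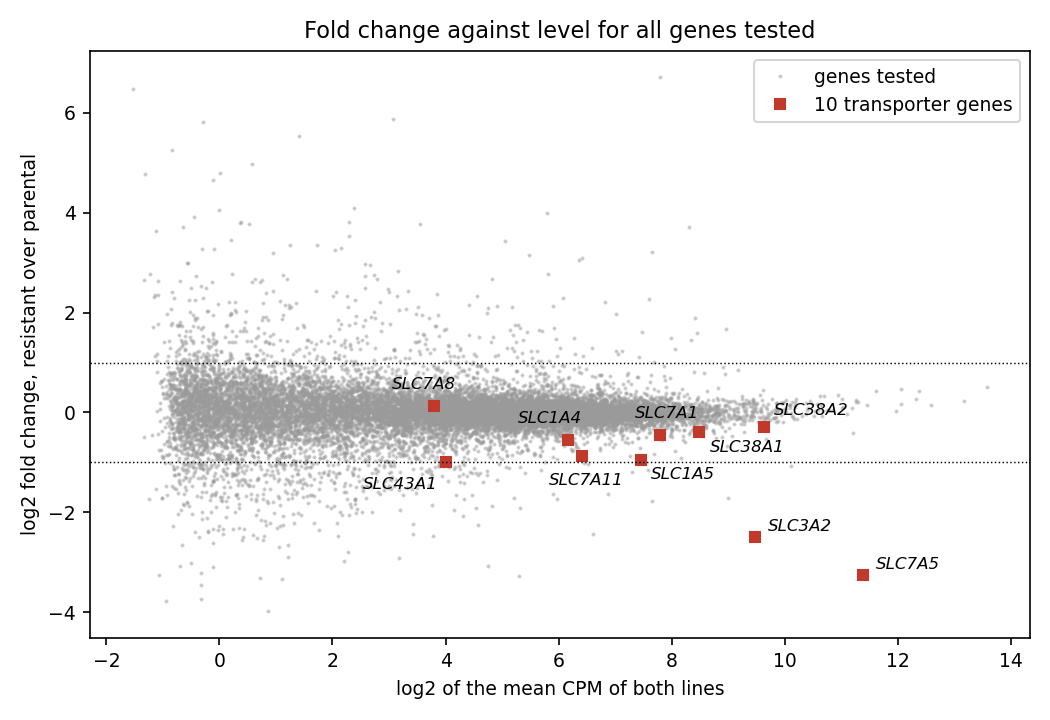
Log2 fold change of resistant over parental libraries against the log2 of mean CPM for the 17142 genes tested (grey points), with the 10 transporter genes as squares and dotted lines at a log2 fold change of 1 in either direction. SLC7A5 at −3.26 and SLC3A2 at −2.501 lie below the lower line, and the other 8 members lie between the lines.

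The genes whose log2 CPM tracked that of SLC7A5 most closely over the 6 libraries were NFIB, a transcription factor (r = 0.9999), COLCA1, an antisense transcript (r = 0.9998), SLC3A2 (r = 0.9996), MFSD2A, a lysophospholipid carrier (r = 0.9996), and HSPA9, a mitochondrial chaperone (r = 0.9994). Their log2 fold changes ran from −3.27 for COLCA1 to −1.06 for HSPA9. SLC3A2 thus held place 3 of 17141 genes, but both genes were chosen with their low counts in these resistant libraries known. A high r between them was therefore built in. In such a design r mostly reads the gap between the lines relative to the spread within them, and 230 genes were above 0.99. SLC38A1 (place 95), SLC7A11 (98) and SLC1A5 (119) followed, and SLC7A8 (12950) had an r of −0.69.

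Other amino acid transporters were examined as a list of 43 further genes of the SLC1, SLC3, SLC6, SLC7, SLC16, SLC36, SLC38 and SLC43 families and of lysosomal export. Of these, 18 had too few counts to be tested, with at most 11 in any library and 5 genes at 0 in all 6 libraries, which allows up to 3 counts per library. Among the 25 tested, 1 was called lower and 1 higher, close to the 2.84% and 2.53% of all genes. At the FDR alone 9 were lower, 4 higher and 12 did not pass, beside 18.4% lower and 17.1% higher among all genes. The median log2 fold change was −0.09.

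SLC38A3, which encodes the glutamine carrier SNAT3, had 53, 43 and 45 counts in parental and 16, 6 and 7 counts in resistant libraries. It fell from 2.96 ± 0.355 to 0.601 ± 0.315 CPM (log2 fold change −2.26, SE 0.327, FDR 3.34e-07 in edgeR's quasi-likelihood test). SLC6A19, the neutral amino acid carrier of kidney and intestine, had 7, 19 and 10 counts in parental and 51, 34 and 32 counts in resistant libraries. It rose from 0.753 ± 0.364 to 2.45 ± 0.566 CPM (log2 fold change 1.70, SE 0.338, FDR 8.28e-05). SLC38A3 passed the filter on low counts through its parental libraries and SLC6A19 through its resistant libraries, in each case the group where it was high. The other group of each held a library under 10 counts. Neither gene was therefore tested when 10 counts were required in every library.

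Among transporters that passed the FDR but not the fold threshold, SLC43A3, a relative of LAT3 that carries purine nucleobases, fell from 41.9 to 21.9 CPM (log2 fold change −0.94, FDR 2.24e-14, edgeR). The glycine carrier SLC6A9 fell by 0.73 on the log2 scale (FDR 1.70e-09), and the neutral amino acid carrier SLC6A15 fell by 0.43 (FDR 4.78e-07). SLC7A2, the CAT2 relative of SLC7A1, fell by 0.25 (FDR 3.26e-04). In the other direction, SLC38A4 (SNAT4) rose from 11.045 to 19.4 CPM, a log2 fold change of 0.81 (FDR 2.85e-08), and SLC43A2 (LAT4) rose from 10.95 to 14.3 CPM, a log2 fold change of 0.38 (FDR 0.00333).

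The remaining tested CD98 light chains gave no call. SLC7A6 (y+LAT2) was at 13.7 ± 0.504 CPM in parental and 13.2 ± 2.33 CPM in resistant libraries, a log2 fold change of −0.06 (SE 0.110, FDR 0.746 in edgeR). SLC7A7 (y+LAT1), at 1.30 and 1.28 CPM, had a log2 fold change of −0.03 with an SE of 0.333, too wide to place it.

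**Figure D4:**
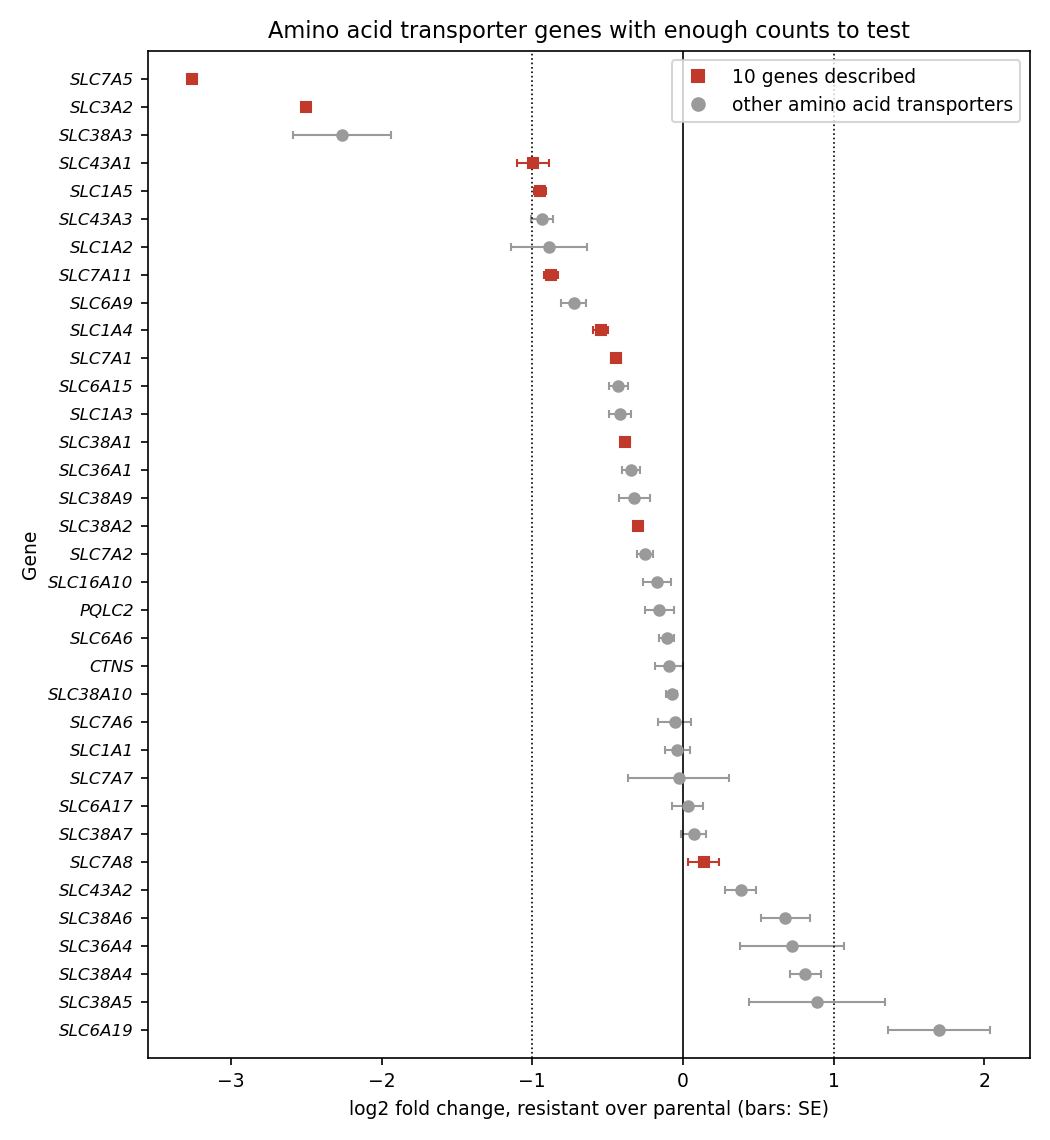
Log2 fold change of resistant over parental libraries with its SE (bars) for the 10 transporter genes (squares) and the 25 other amino acid transporter genes with enough counts to test (circles), sorted by size, with dotted lines at a log2 fold change of 1 in either direction. SLC7A5, SLC3A2 and SLC38A3 lie beyond the lower line and SLC6A19 beyond the upper line, and SLC43A1 sits beside the lower line at −0.99.

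Amino acid sensing genes relay amino acid levels to mTORC1 or uncharged tRNA to GCN2. Of 27 listed, 26 were tested and 0 were called by edgeR's quasi-likelihood test, limma-voom or DESeq2, where 2.84% of all genes were called lower and 2.53% higher, so a list of this size would hold few calls at that rate. At the FDR alone 9 were higher and 3 lower, beside 17.1% and 18.4% of all genes, and the median log2 fold change was 0.10. At an unadjusted p under 0.05, 12 were higher and 4 lower. That cutoff is looser, and no share of all genes was worked out for it. The leucine sensor SESN2 was at 27.1 ± 1.80 and 25.2 ± 0.228 CPM (log2 fold change −0.11, FDR 0.291), and its relative SESN1 rose from 14.1 to 19.2 CPM (log2 fold change 0.44, FDR 2.18e-04). LARS, the leucyl-tRNA synthetase, fell by 0.13 on the log2 scale (FDR 0.00394). BMT2 (SAMTOR), a sensor of S-adenosylmethionine, rose from 8.77 to 14.3 CPM (log2 fold change 0.71, FDR 1.42e-06), the list's largest change. CASTOR2, a relative of the arginine sensor CASTOR1, rose by a log2 fold change of 0.51 (FDR 2.75e-04). EIF2AK4 (GCN2) was at 109 CPM in both lines.

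Enzymes that use the imported amino acids included 1 called gene, which was lower, among 16 tested of 17 listed. Of all genes, 2.84% were called lower and 2.53% higher. At the FDR alone 7 were higher and 4 lower, beside 17.1% and 18.4% of all genes, and the median log2 fold change was 0.05. BCAT1, the cytosolic aminotransferase that begins the breakdown of branched-chain amino acids, fell from 10.4 ± 0.453 to 2.60 ± 0.251 CPM (log2 fold change −2.001, SE 0.159, FDR 8.86e-14, edgeR's quasi-likelihood test). Its mitochondrial counterpart BCAT2 was at 118 ± 5.47 and 117 ± 3.84 CPM (FDR 0.859). PPM1K, the phosphatase that activates the branched-chain ketoacid dehydrogenase, rose from 54.8 to 100.2 CPM (log2 fold change 0.87, FDR 3.69e-19), and BCKDHB, a subunit of that enzyme, rose from 42.8 to 58.2 CPM (log2 fold change 0.44, FDR 3.38e-08). PPM1K (chromosome 4, 88257620 to 88284769) lies near ABCG2, a drug efflux gene that rose by a log2 fold change of 6.71 (SE 0.058). Whether the rise of PPM1K is tied to that of ABCG2 was not tested. Of the glutamine enzymes, glutamine synthetase (GLUL) fell from 139 to 97.9 CPM (log2 fold change −0.51, FDR 1.37e-13).

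Of 5 transcription factors known to act on amino acid transporter genes, 1 passed the FDR, as lower. Among all genes tested 18.4% were lower and 17.1% higher, and 5 genes are too few to set against these shares. ATF4, the factor of the amino acid and integrated stress response, fell from 426 ± 10.3 to 324 ± 8.79 CPM (log2 fold change −0.40, SE 0.029, FDR 9.17e-15 in edgeR). MYC was at 270.0 ± 8.44 and 260.3 ± 6.77 CPM (log2 fold change −0.05, FDR 0.212). NFE2L2 (NRF2) and EPAS1 (HIF-2 alpha) both had a log2 fold change of −0.02, with FDRs of 0.849 and 0.941.

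Proteins known to bind or handle LAT1-CD98 were represented by 8 genes, all tested, and 0 were called, too few genes to set against the 2.84% and 2.53% of all genes called. At the FDR alone 4 were higher and 3 lower in edgeR, beside 17.1% and 18.4% of all genes, and limma-voom and DESeq2 also called 0. The edgeR counts were the same at an unadjusted p under 0.05, where no share of all genes was worked out. NEDD4L, a ubiquitin ligase of membrane transporters, rose from 35.6 ± 1.48 to 67.9 ± 1.03 CPM (log2 fold change 0.93, SE 0.056, FDR 1.98e-17). Its relative NEDD4 fell from 47.2 to 36.5 CPM (log2 fold change −0.37, FDR 4.31e-06). BSG (CD147), a membrane glycoprotein found with CD98, rose by a log2 fold change of 0.17 (FDR 1.26e-06). LAPTM4B, which brings LAT1-CD98 to lysosomes, fell by 0.17 on the log2 scale (FDR 2.77e-04).

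In the main fit, no tested gene near SLC7A5 or SLC3A2 had a drop of similar size. The low-count genes AC126696.2 and MIR6775 inside SLC7A5, described below, were not tested in that fit. Within 1 Mb of SLC7A5 on chromosome 16, 26 of 69 annotated genes were tested, with a median log2 fold change of 0.02 and a range of −1.17 to 0.42. The nearest tested neighbours were KLHDC4, 64.0 kb away with a log2 fold change of −0.37 (FDR 4.47e-07), and BANP, 79.8 kb away at 0.02 (FDR 0.878). A single gene there was called lower, the low-level long noncoding RNA AC092720.1, at 0.942 and 0.420 CPM (log2 fold change −1.17, FDR 0.0425), and this call was lost with limma-voom, with DESeq2, with the replicate block, with no filter on low counts, with at least 10 counts required in every library and without parental replicate 1 or any of resistant replicates 1 to 3.

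Within 1 Mb of SLC3A2 on chromosome 11, 42 of 113 annotated genes were tested, with a median log2 fold change of −0.0014 and a range of −1.34 to 1.54. SNHG1, a noncoding RNA whose gene lies 0.188 kb from SLC3A2, had a log2 fold change of −0.10 (FDR 0.151), and WDR74, 14.3 kb away, had one of −0.03. The next nearest, CHRM1 at 19.8 kb and STX5 at 24.0 kb, were lower, at −0.58 (FDR 0.00193) and −0.39 (FDR 1.37e-06). At the FDR alone 11 of the 42 were lower and 10 higher, beside 18.4% and 17.1% of all genes. BEST1 was called lower (−1.34, FDR 4.98e-05, edgeR) and AP001160.3, an antisense transcript, was called higher (1.54, FDR 0.00333). ROM1 joined the calls without parental replicate 1 or resistant replicate 2.

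**Figure D5:**
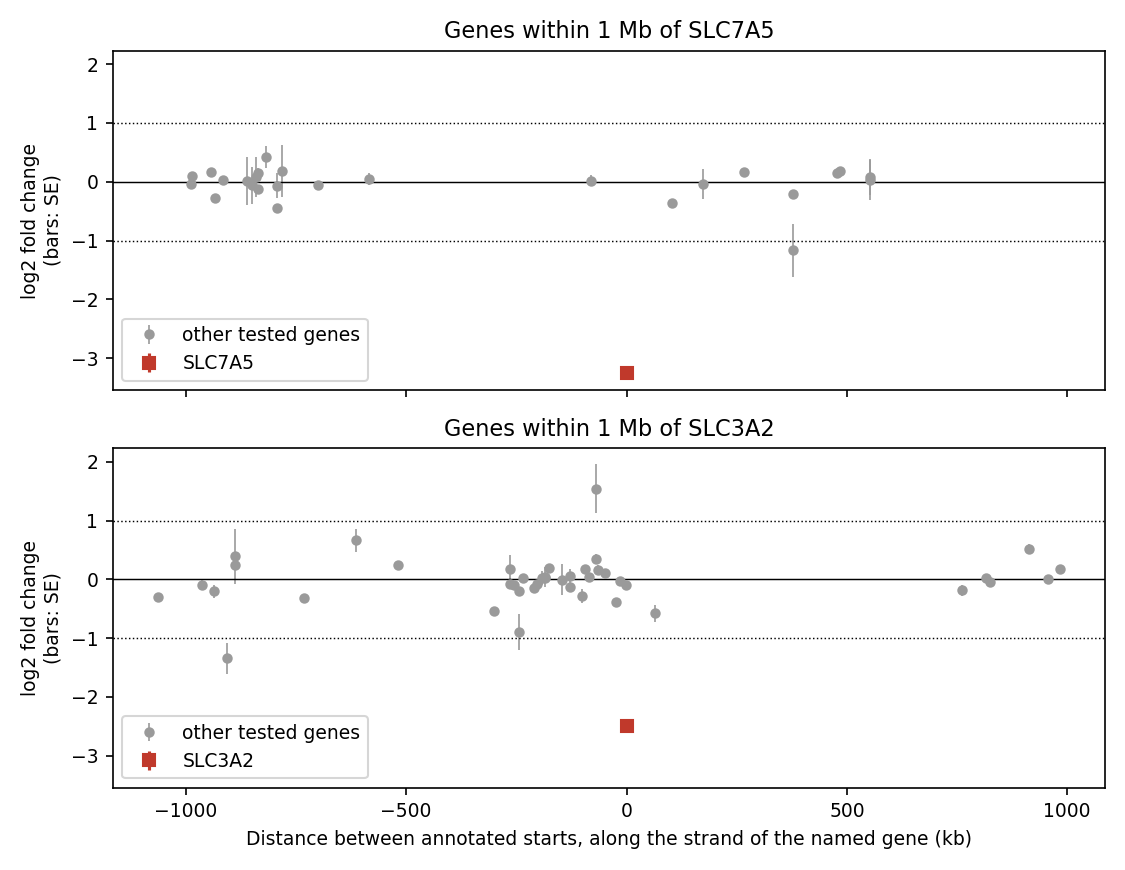
Log2 fold change with SE (bars) of the tested genes within 1 Mb of SLC7A5 (26 genes) and of SLC3A2 (42 genes) against the distance between annotated starts in kb, counted along the strand of the named gene, which is drawn as a square at 0. The neighbours scatter about 0 with medians of 0.02 and −0.0014, far above the squares at −3.26 and −2.501.

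Several transporter genes lie close to one another. SLC43A1 and SLC43A3, 57.0 kb apart on chromosome 11, had log2 fold changes of −0.99 and −0.94. SLC38A1 and SLC38A2, 88.2 kb apart on chromosome 12, had −0.38 and −0.30, whereas SLC38A4, 391.9 kb beyond SLC38A2, had 0.81.

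The pseudogenes of SLC7A5 and the genes that overlap SLC7A5 or SLC7A11 held few counts beside these members. The pseudogene SLC7A5P1 had at most 31 counts in a library and a log2 fold change of 0.01 (FDR 0.977, edgeR), and SLC7A5P2 had 0 counts in every library. Inside SLC7A5, the microRNA gene MIR6775 had 10, 1 and 8 counts in parental and 0, 1 and 0 in resistant libraries. The antisense transcript AC126696.2, also inside SLC7A5, had 9, 7 and 7 counts in parental and 3, 0 and 0 in resistant libraries. Both had too few counts to be tested in the main fit. SLC7A11-AS1, which overlaps SLC7A11 in part on the opposite strand, had at most 16 counts (log2 fold change 0.07, FDR 0.933). Whether counting used strand is not given in the sources used here.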

How the data were processed

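RNA-Seq libraries were grouped by their labels as 3 parental (vehicle) and 3 resistant (BL-B01D1). The authors mapped reads to hg38 with HISAT2 2.0.5, counted them per gene with featureCounts 1.5.0-p3, and deposited the raw counts. Gene lengths and positions are as the authors listed them in the deposited table. Annotation release, strand setting and treatment of multi-mapping reads are not given in the sources used here. Unused columns of per-sample values numbered 0.

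Genes were filtered with filterByExpr, scaled with TMM and tested with edgeR 4.0.16 (quasi-likelihood, R 4.3.3), with Benjamini-Hochberg adjustment over 17142 genes. The SE is the size of the log2 fold change divided by the square root of F. CPM used TMM-adjusted library sizes and FPKM divided CPM by length. No source states separate cultures for the replicates, so the tests measure the spread between libraries, which may be technical. Libraries of the same line differed by 1.77 to 2.48 in chi-square per degree of freedom, against 20.7 to 24.2 across lines. The fit was tested on simulated data.

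The members and gene lists were chosen with earlier results of these data known. The named genes were all 10 members, every called gene of each list, 5 set regulators, the 5 genes most correlated with SLC7A5, and pseudogenes and overlapping genes with at least 10 counts in a library. Other list genes and nearest neighbours were named after their values were seen. Some genes that this rule names are not reported here. Alternatives were limma-voom (limma 3.58.1), DESeq2 1.42.0, library size alone, other filters, a replicate block and leaving out each library.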

Additional observations from a re-analysis of the deposited data

How the results depend on the processing

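Of 239 values recomputed under the alternatives, 229 were classed as the same, 10 as moved and 0 as reversed. The class of a value did not follow the size of its shift alone. All genes called higher were classed as the same at 525 without a filter on low counts, against 434. The log2 fold change of SLC7A5 with library size alone was classed as moved. SLC7A5 and SLC3A2 were called lower under every alternative, and the log2 fold change of SLC7A5 was −3.28 with library size alone and −3.27 to −3.25 as each library was left out. SLC43A1 also passed the fold threshold with library size alone and without parental replicate 1 or resistant replicate 1, and SLC1A5 passed it without resistant replicate 3. With at least 10 counts in every library, 248 genes were called higher and 287 lower, against 434 and 487, and the further amino acid transporters called lower and higher became 0 and 0, because SLC38A3 and SLC6A19 left the test. Those called lower ranged from 1 to 2 as each library was left out, with SLC1A2 added without resistant replicate 3. The called neighbours of SLC7A5 and SLC3A2 numbered 5 without a filter on low counts and 1 with at least 10 counts in every library, against 3. Those called without a filter included AC126696.2 and MIR6775, which lie inside SLC7A5. Without division by gene length the ratio of SLC7A5 to SLC3A2 was 3.98 in parental and 2.35 in resistant libraries. The replicate numbers showed no sign of pairing the samples. Deviations of log2 CPM from the mean of each line correlated at −0.0196 to −0.0081 between same-numbered libraries and at up to 0.017 between differently numbered ones. The deviations of a line sum to 0 for each gene, so this check cannot settle whether the samples were paired. The fit with the replicate block called 471 genes lower and 418 higher, with 2 members lower, and a log2 fold change of −3.26 for SLC7A5. The depth limits the weak genes: 3 counts are 0.174 to 0.216 CPM. A repeated selection and protein levels were not analysed here.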
